A study of Danio rerio with 9 samples.

Results

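The genes described here are the cadherins, protocadherins, catenins, integrins, laminins, neural cell adhesion molecules, collagens and fibronectin of the zebrafish hindbrain, as far as the array names them. They were chosen by symbol alone, as the genes of the platform annotation whose 1 updated symbol begins with cdh, pcdh, ctnn, itga, itgb, lama, lamb, lamc, ncam, col or fn1. The rule found 50 genes among the 5355 named genes tested, on 61 probes. They were 7 cadherins, 4 protocadherins, 5 genes with ctnn symbols, 5 integrin alpha chains, 2 integrin beta chains, 4 laminin chains, 3 neural cell adhesion molecules, 19 collagen chains and 1 fibronectin. The ctnn genes encode catenins, apart from ctnnbip1, which encodes an inhibitor of beta-catenin and is not itself a catenin. For the 9 genes with several probes the brightest over the 9 arrays stood for the gene. The other probes are given where they differ in call, and for some genes besides.

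The study asked which genes lie downstream of Hoxb1a, the homeodomain protein that gives hindbrain segment r4 (rhombomere 4) its identity. The arrays held 3 groups of 3 samples. Normal r4 came from untreated embryos, Hoxb1a-deficient r4 came from embryos injected with a Hoxb1a morpholino, an antisense oligomer that blocks a transcript's use, and normal r2 (rhombomere 2), a segment further forward, came from untreated embryos as a second source of tissue that the study took as Hoxb1a-deficient. All groups share the islet1-GFP transgenic background and the stage of 19 to 20 hours after fertilization, per the labels. Each sample pooled 8 to 10 embryos, and the thick transverse slice around the segment could hold tissue next to the hindbrain. The samples came from 3 experiments, of which the first had no r2 sample, the next had 1 sample per group, and the last had 2 r2 samples, 3a and 3b, beside 1 per r4 group. The label of Hoxb1a-deficient r4 replicate 3 gives its tissue only as rhombomere 4, while its title and treatment protocol give Hoxb1a deficiency. The sources used here do not say whether a control injection was made or whether the morpholino blocks splicing or translation.

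Cadherins are membrane proteins that join cells of like type, and their cytoplasmic tails bind catenins, which tie them to actin and, in the case of beta-catenin, also carry Wnt signals into the nucleus. Integrins are receptors of paired alpha and beta chains that hold cells to the extracellular matrix, whose basement membranes are built on laminin and collagen networks and whose fibrils are built from other collagens. In the hindbrain, differences in adhesion between neighbouring segments help to keep their cells apart, and a basement membrane surrounds the neural tube and separates it from skin, ear and mesenchyme.

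Levels are given as multiples of the array median, the unit of the deposited values, and differences as log2 ratios from a limma fit across all 16227 probes with the experiment as a block and Benjamini-Hochberg adjustment. A difference passed the test at an adjusted p under 0.05, errors of log2 ratios are standard errors, and the number of arrays (3 per group) limits the precision. The fit counts r2 samples 3a and 3b of experiment 3 as separate arrays, and experiment 1 held no r2 sample. Errors and p-values of comparisons with r2 therefore rest on fewer experiments than arrays. The upper quartile of the arrays ran from 3.64 to 6.86 and was highest in experiment 1. Among the genes described, the 25 that stood above the median on every array had median levels of 13.0 in experiment 1, 4.51 in experiment 2 and 5.79 in experiment 3, so that levels are best read within an experiment. The transcript of hoxb1a itself stood at 3.02, 2.42 and 1.88 in normal r4, at 3.17, 1.52 and 1.51 in Hoxb1a-deficient r4 and at 0.774, 0.590 and 0.567 in r2. It was lower in r2 than in normal r4, with a log2 ratio of -1.60 ± 0.16 (adjusted p = 0.00137). Between the r4 groups the ratio of -0.30 ± 0.15 missed the threshold (adjusted p = 0.887), and a morpholino need not lower its target's transcript. Nothing in the labels says that samples came from separate clutches, so p-values measure only the spread between these samples. In bulk tissue fewer cells of a type and less RNA per cell cannot be told apart.

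Of the 50 genes, 25 stood above the array median on all 9 arrays, 17 stood at or below it on all 9, and 8 crossed it. All 5 ctnn genes were in the first class, with 11 of 19 collagens, 4 of 5 integrin alpha chains, 1 of 2 integrin beta chains, 2 of 4 laminins, 1 of 7 cadherins (cdh6) and 1 of 4 protocadherins (pcdh10b). The class below the median held cdh1, cdh17 and cdh26.2, pcdh8, itgae.2 and itgb4, lamc3, fn1a, all 3 ncam genes and the collagens col1a1b, col5a2a, col8a2, col11a2, col17a1a and col19a1. Values of these 17 ran from 0.331 to 0.928. A probe near the lower end of an array gives no measure of absence, and no detection flags were used.

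Hoxb1a-deficient r4 did not differ detectably from normal r4 in any of the 50 genes. In limma with the experiment as a block 0 of 50 passed the test, the lowest adjusted p was 0.873 (cdh2), and 0 of 50 had an unadjusted p under 0.05, against 932 of 16227 probes. Over all probes 0.0123% were called in this comparison, so a count of 0 is near the background. Without the block 0 of 50 were called, against 0% of all probes. The estimates ran from -0.50 to 0.43, with a median of -0.011 in the 50 genes and -0.0060 over all probes. In the fit with the block, the single-gene 95% intervals of the 25 genes above the median on every array lay between -0.89 and 0.84. Larger changes are not excluded by this range, since standard errors were larger without the block, as for col9a3 (0.62 against 0.31). The range does not cover genes outside this class. For cdh6 it is not a firm limit, because its probe was at the array's highest value in normal r4 replicate 3. Groups overlapped for all 50 genes, where 1.47% of all probes had Hoxb1a-deficient r4 wholly below normal r4 and 0.604% wholly above.

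Among cadherins, cdh2, N-cadherin, the main cadherin of neural tissue, had the largest estimate in this comparison. Its brighter probe stood at 7.06, 1.64 and 1.61 in normal r4 and at 3.32, 1.90 and 1.04 in Hoxb1a-deficient r4. Hoxb1a-deficient r4 was lower in experiments 1 and 3 and higher in experiment 2, and the groups overlapped. The difference was -0.50 ± 0.23 (adjusted p = 0.873), and the second cdh2 probe gave -0.23 ± 0.20. The brightest cadherin was cdh6, a type II cadherin, at 84.2, 151 and 112 in normal r4 and at 66.0, 132 and 76.3 in Hoxb1a-deficient r4. On this probe Hoxb1a-deficient r4 was lower in each experiment, by -0.35, -0.19 and -0.55. The fitted difference was -0.36 ± 0.18 (adjusted p = 0.887). The second cdh6 probe gave -0.38 ± 0.29, but was higher in Hoxb1a-deficient r4 in experiment 2 (4.78 against 3.57). The bright cdh6 probe was at the highest value of the array, and so read as saturated, in normal r4 replicate 3 and r2 replicate 3b, where its level is a lower bound. For cdh11, a type II cadherin known from mesenchyme, the difference was -0.27 ± 0.18 (adjusted p = 0.898).

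The catenin ctnna1, alpha-catenin, which links the cadherin complex to actin, stood at 119, 72.3 and 46.3 in normal r4 and at 123, 117 and 58.6 in Hoxb1a-deficient r4. Hoxb1a-deficient r4 was the higher of the pair in each experiment, while the groups overlapped. The difference was 0.36 ± 0.17 (adjusted p = 0.879). In 5 of 50 genes (cdh4, ctnna1, ctnnb1, fn1a and ncam1a) Hoxb1a-deficient r4 was higher in all 3 experiments, against 10.6% of all probes. In another 5 of 50 (cdh6, col8a2, col14a1b, itga5 and lamb2l) it was lower in all 3, against 12.5%. These signs are of the brightest probes. The second cdh6 probe was higher in Hoxb1a-deficient r4 in experiment 2. A second itga5 probe, below the median on all arrays, gave a fitted difference of 0.27 ± 0.17, and a second col14a1b probe gave 0.0045 ± 0.14.

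Among matrix genes and their receptors the laminin chain lamb2l, a beta chain of basement membrane laminin, had a difference of -0.42 ± 0.21 (adjusted p = 0.887). It stood at 5.21, 2.41 and 3.36 in normal r4 and at 2.33, 2.2996 and 3.29 in Hoxb1a-deficient r4. The gap came from experiment 1, where the log2 difference was -1.16, against -0.065 and -0.030 in the other two. The integrin alpha chain itga11a, whose mammalian counterpart pairs with beta1 as a collagen receptor, stood at 3.16, 1.60 and 1.40 in normal r4 and at 2.48, 2.60 and 2.26 in Hoxb1a-deficient r4 (0.35 ± 0.21, adjusted p = 0.890). The fibril-associated collagen col14a1a (0.29 ± 0.24, adjusted p = 0.928) and the fibril-forming collagen col5a1 (0.25 ± 0.26, adjusted p = 0.963) completed the 8 largest differences among genes above the median in either group. Both differences turned negative without Hoxb1a-deficient r4 replicate 2, to -0.074 for col14a1a and -0.12 for col5a1. The other col14a1a probes gave 0.087 ± 0.12 and -0.031 ± 0.14.

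The brightest gene of each other family also showed no detectable difference between the r4 groups. The laminin chain lamb1a, the beta1 chain, stood at 59.7, 48.5 and 80.9 in normal r4 and at 60.7, 77.6 and 53.3 in Hoxb1a-deficient r4 (0.033 ± 0.26). The protocadherin pcdh10b, one of the delta-protocadherins, stood at 28.7, 19.2 and 31.7 in normal r4 and at 38.2, 24.7 and 13.6 in Hoxb1a-deficient r4 (-0.15 ± 0.27). Hoxb1a-deficient r4 held both the highest and the lowest pcdh10b value of the 9 arrays. The laminin receptor chain itga6a differed by 0.023 ± 0.19 and its partner itgb1b by -0.14 ± 0.17. For fn1a and ncam1b, both below the array median on every array, the differences were 0.071 ± 0.13 and -0.080 ± 0.12.

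The sign of the difference between the r4 groups changed with the experiment in several collagens, a pattern that was noticed in the values. In col1a2, a chain of type I collagen, Hoxb1a-deficient r4 minus normal r4 was -0.22 in experiment 1, 1.301 in experiment 2 and -0.90 in experiment 3. In col1a1a, its partner chain, it was -0.64, 0.82 and -0.70, and in col7a1 it was -0.29, 0.79 and -0.75. Of the 11 collagens above the array median on all arrays 7 were higher in experiment 2 and lower in experiments 1 and 3. The pattern stood in 8 of all 19 collagens, in 7 of the 31 other genes (cdh11 and pcdh10a among them), and in 16.7% of all probes. In all, 15 of the 50 genes had it. The summed otic markers described below had it too, at 245, 72.8 and 119 in normal r4 and 180, 116 and 77.2 in Hoxb1a-deficient r4. So did the neural crest sum by sign, though it was nearly level in experiment 1. It was 44.8, 41.6 and 47.0 in normal r4 and 44.6, 45.8 and 36.0 in Hoxb1a-deficient r4. The skin, notochord, muscle, endothelial, blood and hindbrain segment sums did not have the pattern. A link between these patterns was not tested. In experiment 2 the r2 sample was also above normal r4 for col1a2 (0.56) and col1a1a (0.65) and below it for col7a1 (-0.33).

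**Figure D1:**
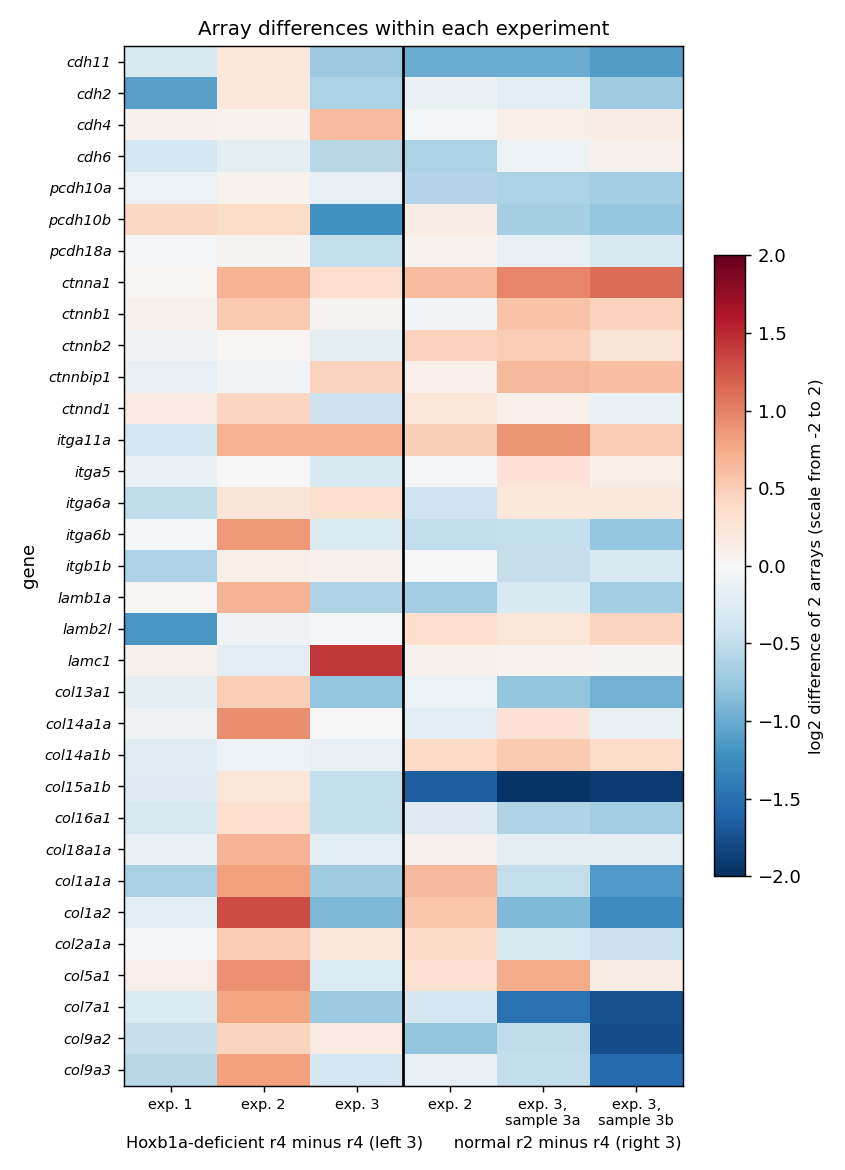
Log2 differences between arrays of the same experiment, as colour on a scale from -2 to 2, for the 25 genes above the array median on all arrays and the 8 above it on some, with Hoxb1a-deficient r4 minus normal r4 in the left columns and r2 minus normal r4 in the right columns. For col15a1b, cdh11 and pcdh10a all r2 differences are negative and close together, and those of samples 3a and 3b share normal r4 replicate 3. Of the 11 collagens above the median on all arrays 7 are higher in Hoxb1a-deficient r4 in experiment 2 and lower in experiments 1 and 3.

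Normal r2 differed from normal r4 in 3 of the 50 genes, all lower in r2: the collagen col15a1b, the cadherin cdh11 and the protocadherin pcdh10a. The calls of cdh11 and pcdh10a were lost with r2 samples 3a and 3b averaged, and that of col15a1b held. Over all probes 0.937% were called lower and 0.764% higher, and 0 of the 50 genes were called higher. At an unadjusted p under 0.05 there were 14 of 50 genes, against 1779 of 16227 probes. The median difference was -0.091 in the 50 genes and 0.035 over all probes, and 35 of 50 were negative, against 6692 of 16227 probes. In 7 genes (cdh2, cdh11, pcdh10a, itga6b, col7a1, col15a1b and col16a1) every r2 array was below every normal r4 array, where 5.05% of all probes were, and in 1 gene (col14a1b) every r2 array was above, where 3.71% were. For cdh2 the groups were apart on the brighter probe only (-0.44 ± 0.25, adjusted p = 0.638). Its second probe overlapped and gave 0.077 ± 0.22 (adjusted p = 0.982). Without the block 0 of 50 were called, against 0.579% of all probes, the lowest adjusted p was 0.309, and 7 of 50 had an unadjusted p under 0.05.

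**Figure D2:**
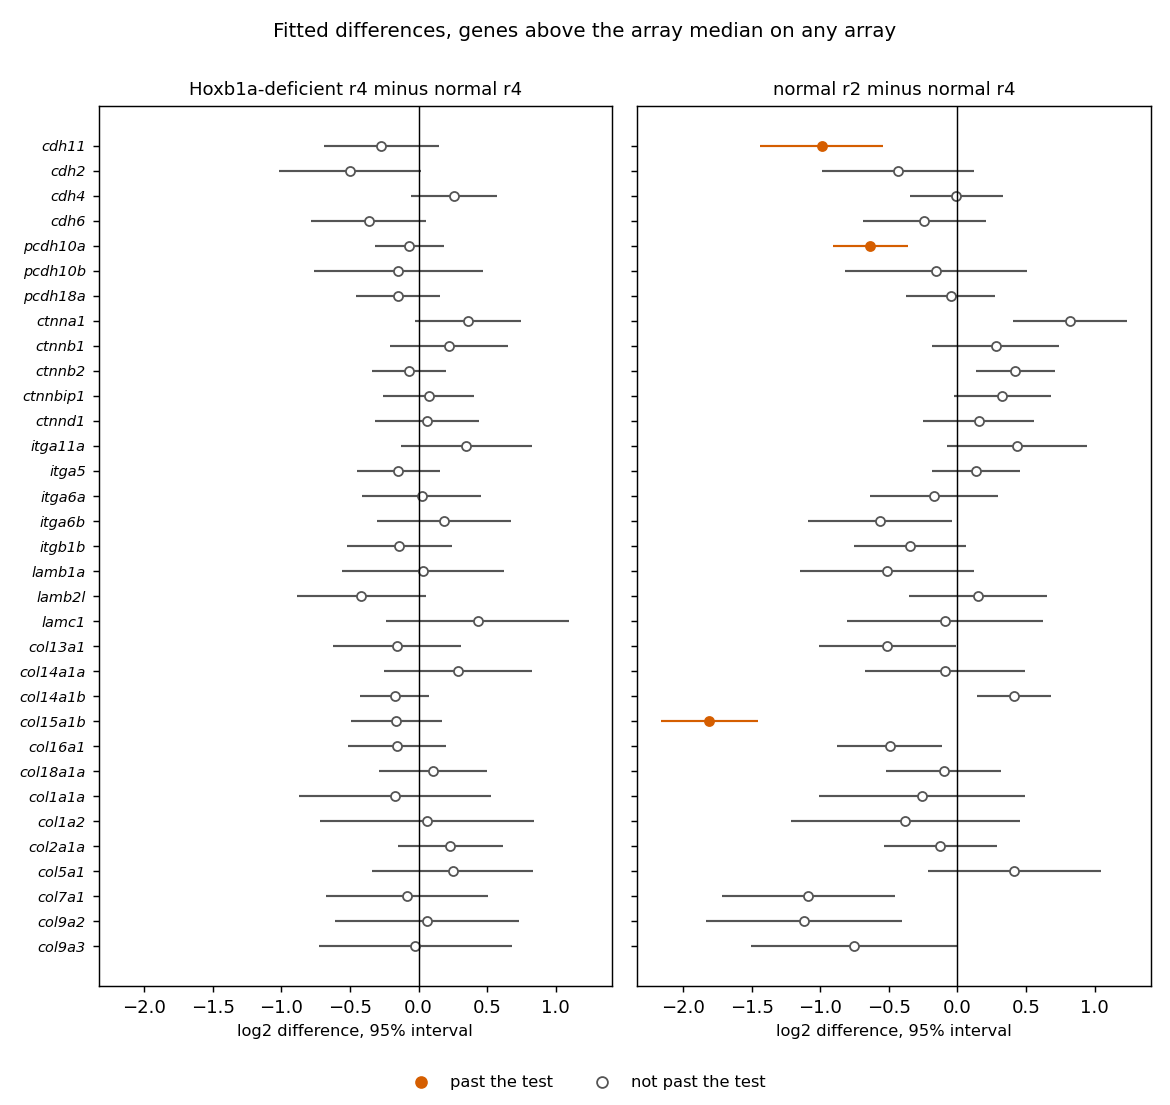
Fitted log2 difference and 95% interval for the 25 genes above the array median on all arrays and the 8 above it on some, from limma with the experiment as a block, for Hoxb1a-deficient r4 minus normal r4 (left) and normal r2 minus normal r4 (right). No gene passes the test on the left, and col15a1b, cdh11 and pcdh10a (filled points) pass it on the right, all below 0.

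The largest difference was in col15a1b, a chain of type XV collagen, which lies at basement membranes. It stood at 14.6, 3.16 and 7.67 in normal r4, at 12.3, 3.74 and 5.50 in Hoxb1a-deficient r4, and at 1.01, 1.97 and 2.04 in r2. Every array of both r4 groups was above every r2 array. The r2 minus r4 differences within experiments were -1.65 for replicate 2, -1.96 for 3a and -1.91 for 3b. Here and below, the differences of 3a and 3b share normal r4 replicate 3, so they are not independent. The fitted difference was -1.81 ± 0.16 (95% interval -2.16 to -1.45, adjusted p = 0.000552). Over the 9 fits that each left out 1 array the adjusted p stayed between 0.000166 and 0.0114.

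The type II cadherin cdh11 stood at 5.37, 1.84 and 1.74 in normal r4 and at 0.927, 0.873 and 0.804 in r2. The r2 arrays all lay below the array median and all r4 arrays above it. Differences within experiments were -0.990 for replicate 2, -0.998 for 3a and -1.12 for 3b, the last pair against the same r4 array. The fitted difference was -0.99 ± 0.20 (adjusted p = 0.0445). The call for cdh11 was lost in 7 of the 9 fits that left out 1 array, with adjusted p up to 0.378, and held without Hoxb1a-deficient r4 replicate 2 or 3. The other 6 cadherins did not pass the test. All 7 had negative estimates on their brightest probes, against 6692 of 16227 probes. The estimates of cdh1 (-0.060 ± 0.12), cdh4 (-0.0072 ± 0.15) and cdh17 (-0.078 ± 0.15) were small against their errors. The second cdh2 probe was positive (0.077 ± 0.22). For cdh6 the brighter, partly saturated probe gave -0.24 ± 0.20. Its second probe stood at 5.29, 3.57 and 5.22 in normal r4 and at 2.81, 1.97 and 2.51 in r2 (-0.71 ± 0.31, adjusted p = 0.452).

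The delta-protocadherin pcdh10a stood at 2.42, 1.26 and 1.15 in normal r4 and at 0.840, 0.744 and 0.709 in r2. As with cdh11, the r4 arrays lay above the median and the r2 arrays below it. Differences within experiments were -0.59, -0.63 and -0.70, with a fitted difference of -0.64 ± 0.12 (adjusted p = 0.0353). A second pcdh10a probe, below the median on all 9 arrays, gave 0.0051 ± 0.15 (adjusted p = 0.998), so the call rests on the brighter probe. It was lost without any 1 of the normal r4 or r2 arrays or without Hoxb1a-deficient r4 replicate 1, with adjusted p up to 0.300. The paralogue pcdh10b differed by -0.16 ± 0.29 (adjusted p = 0.971).

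**Figure D3:**
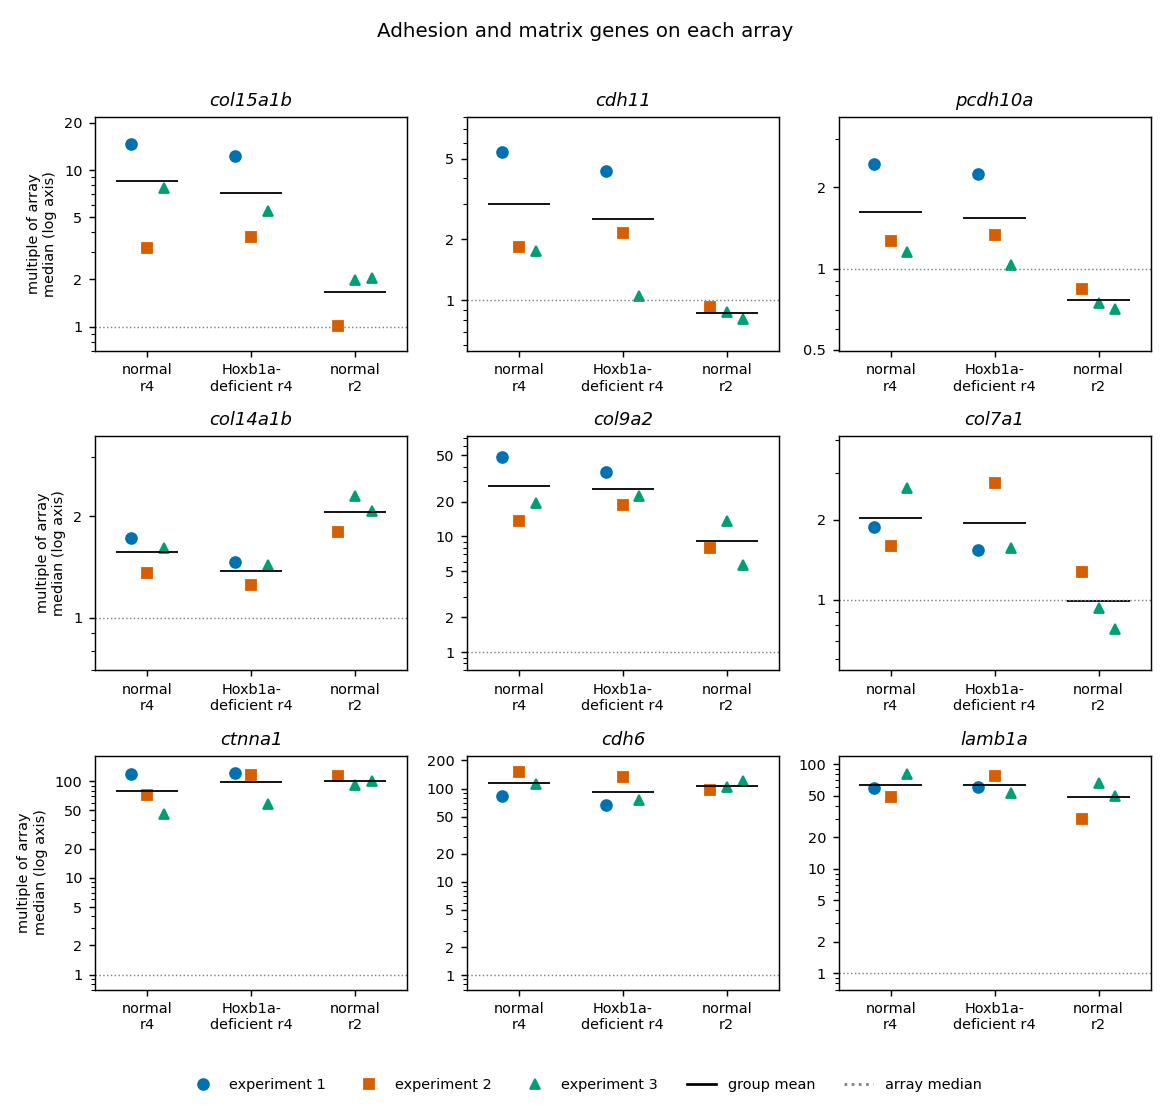
Levels of 9 of the named genes on each array, as multiples of the array median on a log axis, by tissue group, with point shape and colour for the experiment, a bar at the arithmetic mean of each group and a dotted line at the array median. Every r2 point of col15a1b, cdh11, pcdh10a and col7a1 lies below every normal r4 point, and every r2 point of col14a1b lies above both r4 groups. The groups of ctnna1, lamb1a and cdh6 (brighter probe, saturated in normal r4 replicate 3 and r2 replicate 3b) overlap.

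Other collagens had large estimates in r2 that did not pass the test. Type IX collagen, which coats cartilage fibrils in vertebrates, was measured by a pair of its chains. The chain col9a2 stood at 48.9, 13.6 and 19.5 in normal r4, at 35.7, 18.5 and 22.2 in Hoxb1a-deficient r4 and at 7.87, 13.7 and 5.69 in r2. The r2 replicate 3a lay just above normal r4 replicate 2, so the groups overlapped, and the difference was -1.12 ± 0.32 (adjusted p = 0.163). The chain col9a3 stood at 22.0, 3.76 and 6.06 in normal r4 and at 3.37, 4.31 and 2.05 in r2 (-0.75 ± 0.33, adjusted p = 0.456).

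The collagen col7a1, which forms the anchoring fibrils of mammalian skin, stood at 1.88, 1.60 and 2.63 in normal r4 and at 1.27, 0.930 and 0.775 in r2. Its r2 arrays were all below the r4 arrays, with a difference of -1.09 ± 0.28 (adjusted p = 0.117). The difference passed the test without normal r4 replicate 2 (adjusted p = 0.00491), and leaving out another array gave adjusted p up to 0.647. Of the 19 collagens 15 had negative estimates, with a median of -0.13. The type I chains col1a1a (-0.26 ± 0.33) and col1a2 (-0.38 ± 0.37) were above the r4 value in r2 replicate 2 and below it in 3a and 3b.

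The ctnn genes (the catenins and ctnnbip1) took the opposite sign in r2, with positive estimates in 5 of 5 and none past the test. Positive estimates were the more common kind over all probes (9535 of 16227), and among probes above the array median in either group (5329 of 8573). Alpha-catenin (ctnna1) stood at 113, 91.2 and 99.98 in r2, against 119, 72.3 and 46.3 in normal r4. Its groups overlapped because of experiment 1, which held no r2 sample. The differences within experiments were 0.64, 0.98 and 1.11, and the fitted difference was 0.82 ± 0.18 (adjusted p = 0.0702). It passed the test without r2 replicate 2 or without Hoxb1a-deficient r4 replicate 2, with adjusted p down to 0.0168. Leaving out another array gave adjusted p up to 0.464. For the beta-catenins, which bind cadherins and carry Wnt signals, the differences were 0.28 ± 0.20 for ctnnb1 (adjusted p = 0.788) and 0.42 ± 0.13 for ctnnb2 (adjusted p = 0.197), and the other ctnnb2 probes gave 0.024 and -0.091. The gene ctnnbip1, whose product inhibits the binding of beta-catenin to Tcf, differed by 0.33 ± 0.16. The difference was 0.16 ± 0.18 for ctnnd1, p120-catenin, which stabilises cadherins at the membrane.

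Integrins and laminins had 0 of 11 past the test in r2. The alpha6 chains, which with a beta chain bind laminin, were itga6a at 25.3, 12.5 and 12.7 in normal r4 against 9.45, 14.7 and 14.6 in r2, and itga6b at 1.90, 1.83 and 1.79 against 1.302, 1.29 and 1.05. The itga6a groups overlapped (-0.17 ± 0.21), while each itga6b value in r2 was below each in normal r4 (-0.57 ± 0.23, adjusted p = 0.394). The laminin beta1 chain lamb1a stood at 29.9, 65.8 and 50.1 in r2, a spread as wide as that of normal r4, with a difference of -0.52 ± 0.28 (adjusted p = 0.612). Estimates were -0.35 ± 0.18 for itgb1b and -0.080 ± 0.14 for fn1a. The second itgb1b probe, below the median on all arrays, gave 0.059 ± 0.15.

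Hoxb1a-deficient r4 against normal r2 compares the sources of tissue that the study took as Hoxb1a-deficient, and shares the r2 arrays with the preceding comparison. Of the 50 genes 2 were higher in Hoxb1a-deficient r4, against 0.875% of all probes, and 1 was lower, against 1.34%. At an unadjusted p under 0.05 there were 11 of 50 genes, against 2466 of 16227 probes. Without the block 0 of 50 were called, against 0.555% of all probes, and 7 of 50 had an unadjusted p under 0.05. In 11 genes every Hoxb1a-deficient r4 array was above every r2 array, where 4.09% of all probes were, and in 1 gene every array was below, where 6.43% were. The 11 were cdh11, cdh26.2, pcdh10a, itga6a, itga6b and the collagens col7a1, col9a2, col9a3, col13a1, col15a1b and col16a1.

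The genes past the test were col15a1b, higher in Hoxb1a-deficient r4 by 1.65 ± 0.16 (adjusted p = 0.00114), pcdh10a, higher by 0.57 ± 0.12 (adjusted p = 0.0482), and col14a1b, lower by -0.59 ± 0.12 (adjusted p = 0.0413). The fibril-associated collagen col14a1b stood at 1.46, 1.25 and 1.43 in Hoxb1a-deficient r4, at 1.79, 2.303 and 2.08 in r2 and at 1.73, 1.36 and 1.61 in normal r4. Both r4 groups lay below r2, and normal r2 was above normal r4 by 0.41 ± 0.12 (adjusted p = 0.171). A second col14a1b probe, below the median on all arrays, gave 0.058 ± 0.15 (adjusted p = 0.916) for Hoxb1a-deficient r4 against r2. For r2 against normal r4 this second probe gave -0.053 ± 0.15. The col15a1b call held in all 9 fits that left out 1 array, with adjusted p up to 0.0137. The pcdh10a call held in none of them (adjusted p up to 0.177). The col14a1b call held only without Hoxb1a-deficient r4 replicate 2 (adjusted p up to 0.201 in the others). The pcdh10a and col14a1b calls were also lost with r2 samples 3a and 3b averaged. For cdh11 the difference was 0.72 ± 0.20 (adjusted p = 0.116), and it passed without Hoxb1a-deficient r4 replicate 3 (adjusted p = 0.0407). For col7a1 it was 1.003 ± 0.28 (adjusted p = 0.120, and 0.0129 without normal r4 replicate 2), and for col9a2 1.18 ± 0.32 (adjusted p = 0.112, and 0.0403 without r2 replicate 3a). Leaving out another array gave adjusted p up to 0.266 for cdh11, 0.314 for col7a1 and 0.472 for col9a2.

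Other genes of the matrix and of cell adhesion were read from a pair of lists of 89 and 77 symbols, of which 29 and 26 were measured. The lists were chosen with earlier results of these data known, so counts in them may not be independent of the values. Between the r4 groups 0 of these 55 genes passed the test. In r2 5 of 55 were lower than in normal r4, against 0.937% of all probes, and 0 were higher, against 0.764%. The count of 5 became 3 without replicate 1 of either r4 group and 2 without normal r4 replicate 3. The matrix glycoprotein tenascin N (tnn) stood at 89.1, 29.2 and 61.2 in normal r4, at 38.1, 40.1 and 20.4 in Hoxb1a-deficient r4 and at 8.27, 6.49 and 3.45 in r2. Each r2 array was below each r4 array, by -2.95 ± 0.42 (adjusted p = 0.00887). The matrix protein gene matn4 was lower by -2.03 ± 0.37 (adjusted p = 0.0313).

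The other three encode parts of epithelial cell contacts. The epithelial adhesion molecule gene epcam stood at 23.6, 5.66 and 10.5 in normal r4 and at 1.08, 1.24 and 0.831 in r2 (-3.07 ± 0.32, adjusted p = 0.00167). The desmoplakin gene dspa was lower in r2 as well (-1.41 ± 0.18, adjusted p = 0.00469). So was the plakophilin gene pkp1b (-2.10 ± 0.19, adjusted p = 0.000608), and both are genes of desmosomes. Other genes of such contacts on the list (dsc2l, evpla, jupa, pkp3a and ppl) were not called. Within experiments evpla was higher in each r2 array (1.25 against 1.21, then 3.37 and 3.32 against 2.83). The signs of dsc2l, jupa and ppl varied, and pkp3a, below the median on all arrays, was lower in each. Against r2, Hoxb1a-deficient r4 was higher in 5 of 55: tnn (2.17 ± 0.42), epcam (3.10 ± 0.32), dspa (1.54 ± 0.18), pkp1b (1.70 ± 0.19) and timp2b (1.98 ± 0.26), an inhibitor of matrix metalloproteinases, with adjusted p from 0.00162 to 0.0332. Over all probes 0.875% were called higher, and the count in the 55 genes was 8 without Hoxb1a-deficient r4 replicate 2. For timp2b Hoxb1a-deficient r4 stood at 9.05, 11.7 and 9.83, above all normal r4 arrays (5.996, 2.72 and 3.80) and all r2 arrays (1.99, 2.55 and 2.90). Over all probes 0.604% had Hoxb1a-deficient r4 wholly above normal r4. The test did not separate the r4 groups for timp2b (1.35 ± 0.24, adjusted p = 0.277).

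**Figure D4:**
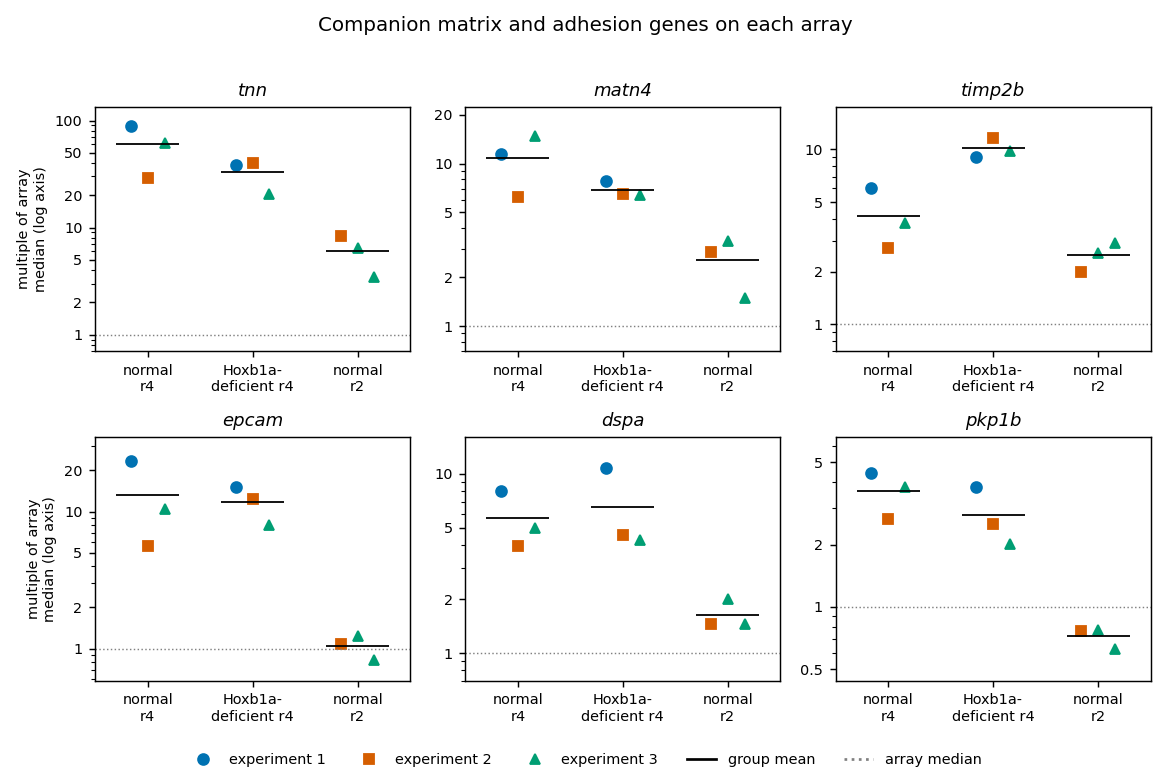
Levels of the 6 matrix and adhesion genes past the test in a comparison with r2, on each array, as multiples of the array median on a log axis, by tissue group, with point shape and colour for the experiment and a bar at the arithmetic mean of each group. Every r2 point of tnn, matn4, epcam, dspa and pkp1b lies below every point of both r4 groups, and the Hoxb1a-deficient r4 points of timp2b lie above all others.

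Markers of other tissues that a thick slice could hold were read beside these results. Their lists were also chosen with earlier results of these data known, so their counts may not be independent of the values. Over 14 otic vesicle genes the summed level was 72.8 to 245 in normal r4, 77.2 to 180 in Hoxb1a-deficient r4 and 18.8 to 20.6 in r2, and 8 of 14 were lower in r2 than in normal r4. Over all probes 0.937% were lower in r2 and 0.764% higher, the shares to set beside each marker list. Within experiment 2 the otic sum was 72.8 in normal r4 and 19.2 in r2, and within experiment 3 it was 119 in normal r4 and 20.6 and 18.8 in r2. The otic sum was thus lower in each r2 array, as were the levels of col15a1b, cdh11, pcdh10a, tnn, matn4, epcam, dspa and pkp1b, and its part in their differences was not tested. The numbers of otic genes above the array median on every array of a group were 9, 9 and 6 in the same order.

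Over 11 skin and periderm genes the sum was 58.7 to 146 in normal r4, 81.9 to 155 in Hoxb1a-deficient r4 and 35.9 to 64.6 in r2, and 1 of 11 (epcam) was lower in r2. The claudin gene cldni made up most of the skin sum in each group, and its probe was at the array's highest value in normal r4 replicate 3. Within experiment 2 the skin sums of normal r4 and r2 were 58.7 and 56.1. Within experiment 3 the skin sum was 146 in normal r4 and 64.6 and 35.9 in r2 samples 3a and 3b. The part of skin tissue in the r2 differences was not tested. Over 9 notochord and floor plate genes the sum was 32.6 to 105, 41.3 to 71.2 and 24.3 to 32.4, with 0 of 9 past the test and a median difference of 0.021 between r2 and normal r4. The value of 105 came from experiment 1, which held no r2 sample, and within experiment 2 the sums of normal r4 and r2 were 32.6 and 29.1. Within experiment 3 this sum was 38.7 in normal r4 and 32.4 and 24.3 in r2 samples 3a and 3b.

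Over 22 neural crest and pharyngeal arch genes the sum was 41.6 to 47.0 in normal r4, 36.0 to 45.8 in Hoxb1a-deficient r4 and 44.9 to 56.2 in r2, with 1 gene higher (gch2) and 2 lower (dlx5a and prdm1a) in r2 than in normal r4. Over 17 skeletal muscle genes it was 14.8 to 15.8, 14.7 to 19.8 and 13.2 to 15.1, over 9 endothelial genes 9.77 to 13.2, 7.80 to 9.41 and 9.07 to 10.8, and over 8 blood genes 9.50 to 12.2, 7.24 to 12.5 and 8.26 to 8.99, with 0 past the test in these lists. The 7 hindbrain segment genes summed to 145 to 223, 133 to 220 and 37.6 to 68.7, with 4 of 7 lower in r2. For the labelled tissue, the sox3 probe of the neural progenitor list was at the array's highest value on 6 of 9 arrays, and the neuronal probes of tubb5 and sncb on 5 and 3, so that sums over these lists are lower bounds and are not compared. Of 9 neural progenitor genes 1 was lower in r2 (fabp7a), and of 11 neuronal genes 1 was higher (stmn2a) and 2 were lower (neurod1 and nefma).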

How the data were processed

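Per the labels' protocols, the RNA of the 9 samples (PicoPure extraction) was amplified (RiboAmp HS) before biotin labelling, so levels pass through an amplification step. The deposited table holds 16399 rows, and its values, as the authors deposited them, were taken as the ratio of a spot's intensity to a constant per array, since each array's median is 1.00 to 1.01 and no value is 0. Background correction and detection calls were not given in the sources used here. Names came from the platform annotation and a later gene table: 6079 rows had 1 symbol, 74 several and 10246 none. The 172 actb2 control spots were left out.

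Log2 values were fitted with limma 3.58.1 in R 4.3.3 (lmFit, eBayes, two-sided, 4 residual degrees of freedom). The fit was on group and experiment over all 9 arrays and 16227 probes, after a check on simulated data. The simulated noise was independent between arrays, so the check could not test the effect of treating r2 samples 3a and 3b as separate. The experiment is the block because the design text ties replicate numbers to experiments. Deviations of the same-numbered r4 arrays correlated at 0.892, 0.730 and 0.683. Across numbers they correlated at 0.504 and 0.352 between experiments 2 and 3 and from -0.781 to -0.678 with experiment 1. Deviations were taken from the mean of the 3 arrays of a group, so they cancel within a group. Positive correlations for some pairs therefore force negative ones for others, and the negative values are no separate evidence of pairing. The fit without the block is an alternative. Named genes are hoxb1a, genes past the test, the 8 largest differences per comparison among genes above the array median in a group, the brightest of each family, companion genes past the test, and genes whose probes differ in call. Genes given beyond these were chosen after their values were seen. The members and lists were chosen with earlier results of these data known.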

Additional observations from a re-analysis of the deposited data

How the results depend on the processing

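Between the r4 groups 0 of 50 genes passed the test under every alternative run. For r2 against normal r4 the count was 3, and it was 0 with no replicate block and on log2(value + 16), 1 on log2(value + 1), with r2 samples 3a and 3b averaged and without experiment 1, and 5 after quantile normalization. Leaving out 1 array at a time gave 1 to 4. For Hoxb1a-deficient r4 against r2 the count was 3, and it was 0 with no replicate block and on log2(value + 16), and 1 on log2(value + 1), with probes below the median filtered out, with all probes of a gene averaged and without experiment 1. Leaving out 1 array gave 1 to 3. The companion genes gave 5 in both comparisons with r2, and 4 in each with no replicate block. Log2(value + 1) gave 1 in each and log2(value + 16) 0 in each. Against normal r4 the count was 3 without experiment 1, and against Hoxb1a-deficient r4 it was 8 after quantile normalization. Leaving out 1 array gave 2 to 7 against normal r4 and 4 to 8 against Hoxb1a-deficient r4. The alternative log2(value + 16) was chosen after seeing the data, and an added constant lowers the differences of dim probes.

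Of 456 values (24 differences of named genes under 19 alternatives) 382 kept their direction and side of the threshold, 63 lost the call, 9 gained it and 2 reversed. The 2 were between the r4 groups without Hoxb1a-deficient r4 replicate 2, where col14a1a gave -0.074 (the range over left-out arrays was -0.074 to 0.51) and col5a1 gave -0.12 (-0.12 to 0.56). The cause was not tested. The col15a1b calls held in 17 of 19 alternatives in both comparisons with r2 and were lost with no replicate block and on log2(value + 16). The cdh11 call held in 7 of 19, the pcdh10a calls in 5 and 2, and the col14a1b call in 3. With r2 samples 3a and 3b averaged the cdh11, pcdh10a and col14a1b calls were all lost. With 4 residual degrees of freedom and levels near the array median for many of these genes, small differences were not detectable.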

Other observations

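In Hoxb1a-deficient r4 replicate 3 the laminin gamma1 chain lamc1 stood at 1.49, while the other 8 arrays ran from 0.393 to 0.716. The same sample had the lowest pcdh10b value of the 9 arrays (13.6) and the lowest value of the second cdh6 probe (1.89).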
